A study of Mus musculus with 4 samples.

Results

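The nuclear-encoded subunits of the respiratory chain were followed in the RNA of mouse peritoneal macrophages that carry or lack DNA methyltransferase 1. Members were chosen by name alone: a listed gene was taken when its symbol began with Nduf followed by a, b, c, s or v and a digit, with Uqcr, with Cox4 to Cox8, or with Atp5, or when it was Sdha, Sdhb, Sdhc or Sdhd. This gave 83 genes, of which Cox7c-ps1 and Ndufb1-ps were dropped as pseudogene names, leaving 81 of the 13834 genes listed. Complex I held 38 members, complex II 4, complex III 8, complex IV 14 and complex V 17. Ndufa4 was kept with the Nduf names, although its protein is a subunit of complex IV, and Ndufb4c is annotated as a processed pseudogene.

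The control group, Dnmt1fl/fl, held 2 samples from mice with a floxed Dnmt1 allele, whose genotype label reads wt, and the Dnmt1KO group held 2 samples from mice that also express Cre under the control of the lysozyme M promoter, which is active in myeloid cells and not in macrophages alone. All mice were 10 weeks old and received thioglycolate broth into the peritoneal cavity 3 days before lavage, so the cells were elicited macrophages, and they were cultured and not sorted by a marker. Neither the labels nor the methods say whether a sample came from 1 mouse or from a pool, and the p-values below measure the spread between these samples only. The question put to these data is whether transcripts of the respiratory chain differ between the genotypes, and how the 5 complexes compare.

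The respiratory chain sits in the inner mitochondrial membrane. Complexes I and II pass electrons from NADH and succinate to ubiquinone, complex III hands them to cytochrome c, complex IV transfers them to oxygen, and complex V, the ATP synthase, uses the proton gradient built up on the way. Most subunits are encoded in the nucleus, translated in the cytosol and imported, and they join a small core set encoded by mitochondrial DNA. Complex II alone has no mitochondrially encoded subunit, and its succinate dehydrogenase also works in the tricarboxylic acid cycle. In macrophages the balance between respiration and glycolysis shifts with activation, and most of the subunit messages are short and abundant.

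Dnmt1 was measured at 86.5 and 67.0 CPM (read counts scaled to the library total with TMM factors) in the Dnmt1fl/fl samples and at 36.9 and 42.7 CPM in the Dnmt1KO samples, so both Dnmt1KO samples lay below both controls. Its log2 fold change was -0.95 (SE 0.24), with an unadjusted p of 0.0084 and an adjusted p of 1.00 by edgeR's quasi-likelihood test. RNA outside the floxed exons may still be counted. Library totals ran from 20228082 to 24198959 counts. Dnmt1KO replicate 1 stood apart from the other libraries in transcript length and in cell type markers. Among the genes that are no members, its median log2 deviation from the mean of the 4 samples went from 0.36 in the shortest of 10 equal bins of transcript length to -0.37 in the longest. The 7 listed neutrophil markers (Camp and Ngp were not listed) summed to 737 CPM in this library against 182 to 253 CPM in the other 3, and all 7 were highest there, among them S100a9 with 320.02 CPM against 5.55 to 60.5 CPM. Of the 8 macrophage markers, Csf1r lay between 1011 and 1126 CPM and Adgre1 between 700.2 and 986 CPM in all libraries. Both were lowest in Dnmt1KO replicate 1, as was Mertk (121 CPM against 152 to 234 CPM), while Cd68 (1835 CPM against 1144 to 1487 CPM) and Fcgr1 (334 CPM against 184 to 216 CPM) were highest there. Itgam lay between 1757 and 2205 CPM and Cd14 between 197 and 472 CPM. Lyz2, the locus into which the lysozyme M Cre is inserted, was at 29522 and 28579 CPM in the controls and at 11348 and 15740 CPM in the Dnmt1KO samples, and the other 7 macrophage markers summed to values between 5739 and 6553 CPM. B cell markers summed to 130 CPM in Dnmt1KO replicate 1 and to 318 to 525 CPM elsewhere. The 5 markers of resident large peritoneal macrophages summed to 104 CPM in this library against 146 to 235 CPM, and each was lowest there. Monocyte markers summed to 514 CPM against 571 to 837 CPM, though 2 of the 4 were highest in this library. The 4 mesothelial markers were all highest there, at a sum of 7.72 CPM against 3.01 to 5.10 CPM. The part of these differences in the values below was not tested. In bulk RNA, fewer cells of a type and less RNA per cell cannot be told apart.

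Nearly all subunit messages had a higher mean in Dnmt1KO than in Dnmt1fl/fl macrophages, with a ratio of mean CPM of 1.27 at the median, and the higher mean came from 1 of the 2 Dnmt1KO samples. Of 81 members, 80 passed the filter on low counts, and 79 of these 80 had a log2 fold change above 0, where 50.9% of all 12542 genes tested did. The median over the members was 0.34 on the log2 scale against 0.0046 over all genes tested, and the members ranged from -0.0028 (Ndufb2) to 0.81 (Cox7a1). None of the 80 passed an adjusted p of 0.05 by edgeR's quasi-likelihood test (0.0% of all genes did), and none had an unadjusted p under 0.05 (0.279% of all genes did). DESeq2 called no member (0.00797% of all genes) and neither did limma-voom (0.0% of all genes). The pooled SD between replicates had a median of 0.43 on the log2 scale, and 19 of the 80 log2 fold changes were larger than the gene's own pooled SD. The smallest unadjusted p was 0.114 (edgeR quasi-likelihood), for Ndufv3.

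Dnmt1KO replicate 1 had the highest CPM of the 4 samples for 79 of the 80 members, where this sample was highest for 38.8% of all genes. Cox6b2, a testis isoform present at under 1 CPM, was the exception, and it is named here because its values were seen to break the count. Dnmt1KO replicate 2 lay below both controls for 42 members (32.0% of all genes), between or level with them for 32, and above both for 6 (32.6% of all genes). Relative to the mean of the controls, the median member was 0.72 higher in Dnmt1KO replicate 1 and 0.13 lower in Dnmt1KO replicate 2 on the log2 scale. Within the controls, Dnmt1fl/fl replicate 2 exceeded replicate 1 for 74 members (50.1% of all genes), with a median difference of 0.19. The gap between the Dnmt1KO samples, at a median of 0.83, was thus wider than the gap between the genotype means.

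**Figure D1:**
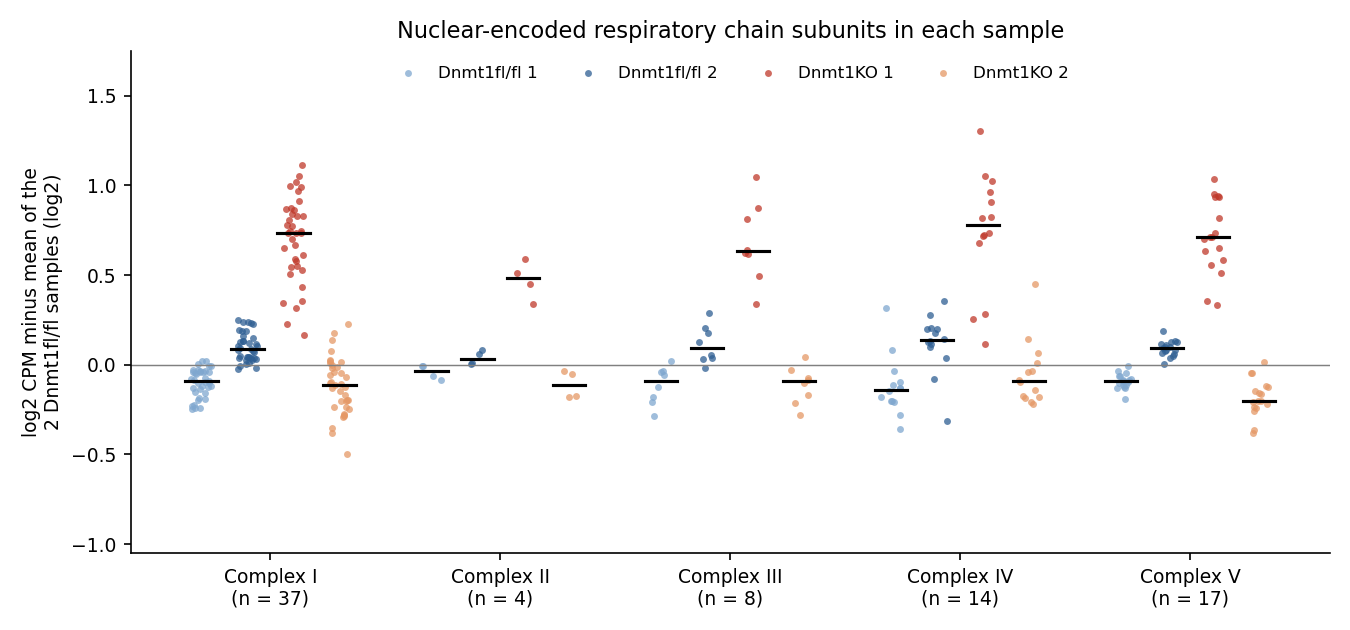
Each point is 1 of the 80 tested subunits, plotted as its log2 CPM minus the mean of the 2 Dnmt1fl/fl samples (y axis, log2 units) for the 4 samples of each complex (x axis), and black bars are medians. Dnmt1KO replicate 1 is displaced upward in all 5 complexes, with medians from 0.48 in complex II to 0.78 in complex IV, while the medians of Dnmt1KO replicate 2 lie between -0.20 and -0.09.

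Both Dnmt1KO samples lay above both controls for 6 of the 80 members, against 8.14% of all genes, and both lay below them for none, against 8.56%. Complex I gave 4 of the 6 (Ndufv3, Ndufb4, Ndufa6 and Ndufb11), complex III gave Uqcrfs1 and complex IV gave Cox6a2. With 2 samples in each genotype, the exact permutation p of 1 gene, two-sided, is at least 0.333.

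The direction of the comparison turned with the library that was left out. Without Dnmt1KO replicate 1, 66 of 80 members had a log2 fold change below 0 and 14 above it (49.6% of all genes above), and the median was -0.14. None of them passed an adjusted p of 0.05 in edgeR (0.0% of all genes), and none had an unadjusted p under 0.05 (2.73% of all genes did). Without Dnmt1KO replicate 2, all 81 members that then passed the filter were higher (48.7% of all genes), with a median of 0.72, and 32 of them passed an adjusted p of 0.05, where 8.33% of all genes did. In that fit the lone Dnmt1KO sample was assumed to vary as the controls did. The 32 comprised 17 of complex I, 3 of complex III, 6 of complex IV, 6 of complex V and none of complex II. Leaving out a control moved the median to 0.25 (without Dnmt1fl/fl replicate 1) or to 0.46 (without Dnmt1fl/fl replicate 2), with no member called (0.0155% and 0.0781% of all genes).

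**Figure D2:**
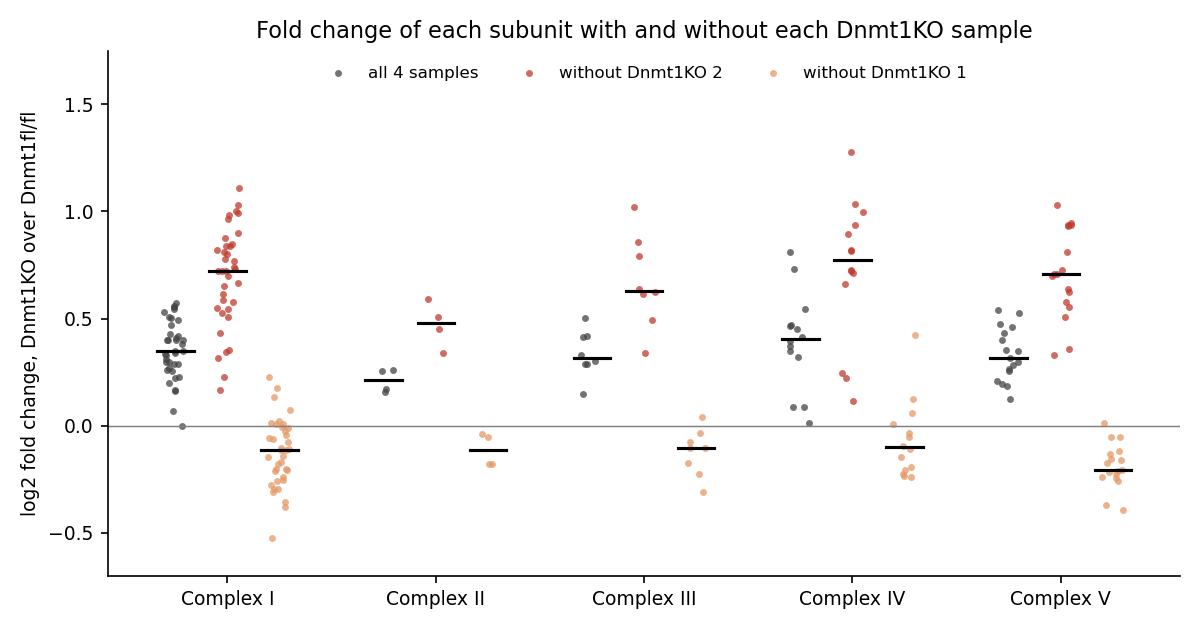
Log2 fold change of Dnmt1KO over Dnmt1fl/fl (y axis) for each of the 80 subunits, by complex (x axis), with all 4 samples, without Dnmt1KO replicate 2 and without Dnmt1KO replicate 1. Points are genes and black bars are medians, and the medians without Dnmt1KO replicate 1 lie between -0.21 and -0.10 in the 5 complexes.

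Complex I, the NADH dehydrogenase, showed a median log2 fold change of 0.35, with 36 of 37 tested members above 0. It had 4 members (10.8%) with both Dnmt1KO samples above both controls, against 8.14% of all genes. Its electron path runs from the flavin subunit Ndufv1 through the iron-sulfur subunits Ndufs1, Ndufs8 and Ndufs7 towards ubiquinone, and Ndufv2 and Ndufs3 belong to the same core. Ndufs1, the largest of the iron-sulfur subunits, was at 72.0 and 71.6 CPM in Dnmt1fl/fl and at 80.7 and 69.9 CPM in Dnmt1KO, with a log2 fold change of 0.07 (SE 0.21) that turned to -0.0093 without TMM factors. Only Dnmt1KO replicate 1 was above the controls. Ndufv1 was at 39.5 and 41.9 CPM in Dnmt1fl/fl and at 62.2 and 40.6 CPM in Dnmt1KO (log2 fold change 0.34, SE 0.27). Ndufv2 was at 46.9 and 58.5 CPM and at 87.1 and 53.1 CPM, in the same order of groups (0.41, SE 0.31). In both, Dnmt1KO replicate 2 fell between the controls.

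Ndufs3 reached 41.3 and 42.9 CPM in the controls and 59.8 and 41.8 CPM in Dnmt1KO (log2 fold change 0.27, SE 0.25), and the second Dnmt1KO sample lay within the range of the controls. Ndufs7 gave 28.3 and 36.8 CPM in the controls against 53.7 and 31.3 CPM, and Ndufs8 gave 32.4 and 34.2 CPM against 48.6 and 30.9 CPM, with log2 fold changes of 0.38 (SE 0.32) and 0.26 (SE 0.28). These 6 core subunits had an adjusted p of 1.00 by edgeR's quasi-likelihood test.

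Among the accessory subunits, Ndufv3 (mm10 chr17:31520115-31531331, plus strand), a small subunit next to the flavin site, was at 26.6 and 28.1 CPM in the controls and at 50.2 and 30.1 CPM in Dnmt1KO. Its groups did not overlap, but the 2 Dnmt1KO samples differed from each other by 0.74 on the log2 scale, more than its log2 fold change of 0.55 (SE 0.30). Ndufb4 (chr16:37647170-37654453, minus strand) was at 9.40 and 9.13 CPM against 15.9 and 10.8 CPM, with a log2 fold change of 0.53 (SE 0.30). Of the stretches of 100 bases in its principal annotated transcript, 33.4% also occur in the processed pseudogene Ndufb4c. All of those in Ndufb4c occur in Ndufb4, so the division of reads between these genes is uncertain. Ndufb4c itself was at 15.3 and 17.4 CPM in the controls and at 23.9 and 12.8 CPM in Dnmt1KO, where the groups overlapped.

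Ndufa6 (chr15:82350140-82354322, minus strand), a LYR-motif subunit of the matrix arm, had the closest replicates of all tested members. It measured 55.5 and 55.9 CPM in Dnmt1fl/fl and 70.6 and 63.03 CPM in Dnmt1KO, with a log2 fold change of 0.26 (SE 0.21, pooled SD 0.08, unadjusted p = 0.254 by edgeR). Both Dnmt1KO samples were above both controls. Ndufb11 (chrX:20615326-20617619, minus strand), a membrane-arm subunit, gave 54.1 and 56.6 CPM against 68.9 and 58.2 CPM (0.20, SE 0.21), again without overlap. Ndufb2 was the single tested member with a log2 fold change below 0, at 13.6 and 15.1 CPM against 16.8 and 11.9 CPM (-0.0028, SE 0.28), and was named after its value was seen.

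Complex II, succinate dehydrogenase, had the smallest median of the 5 complexes, 0.21, with all 4 members above 0. The groups overlapped for all 4, where 8.14% of all genes had both Dnmt1KO samples above both controls and 8.56% below. Sdha, the flavoprotein that oxidises succinate, was at 255 and 258 CPM in the controls and at 325 and 248 CPM in Dnmt1KO (log2 fold change 0.16, SE 0.24). The iron-sulfur subunit Sdhb was at 89.0 and 99.8 CPM against 129 and 83.6 CPM (0.17, SE 0.28). Dnmt1KO replicate 2 was the lowest of the 4 samples in both. The membrane anchors were likewise highest in Dnmt1KO replicate 1. Sdhc was at 82.0 and 82.6 CPM against 124 and 72.8 CPM (0.26, SE 0.31), and Sdhd was at 91.03 and 98.9 CPM against 135 and 92.6 CPM (0.26, SE 0.27). For Sdhd alone, the second Dnmt1KO sample fell between the controls.

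Complex III, the cytochrome bc1 complex, had 8 of 8 members above 0 and a median of 0.32. Uqcrfs1 (chr13:30540308-30545362, minus strand), the Rieske iron-sulfur protein, was at 71.6 and 75.01 CPM in Dnmt1fl/fl and at 103 and 75.6 CPM in Dnmt1KO, with a log2 fold change of 0.29 (SE 0.25). The groups did not overlap, by a margin of less than 1 CPM for Dnmt1KO replicate 2. The core protein Uqcrc1 was at 139 and 150.2 CPM against 221 and 135 CPM (0.30, SE 0.30). Its partner Uqcrc2 was at 95.9 and 93.3 CPM against 119.5 and 89.8 CPM (0.15, SE 0.24), the smallest value in the complex. In both core proteins Dnmt1KO replicate 2 was the lowest sample. Of the Uqcrc2 stretches of 100 bases, 22.7% are shared with the neighbouring gene Pdzd9.

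Complex IV, cytochrome c oxidase, had the largest median, 0.40, with 14 of 14 members above 0. Here Dnmt1KO replicate 2 lay between the controls for 11 members and below both for 2. Cox4i1, the ubiquitous regulatory subunit, was at 259.5 and 273 CPM in the controls and at 439 and 260.2 CPM in Dnmt1KO (log2 fold change 0.39, SE 0.31). Cox5a was at 55.7 and 82.1 CPM against 132 and 58.5 CPM (0.47, SE 0.44), and Cox5b was at 62.6 and 82.5 CPM against 135 and 63.6 CPM (0.45, SE 0.40). The controls of these last genes also differed from each other, with replicate 2 the higher.

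Several complex IV subunits exist as a ubiquitous form and as a form of muscle, testis or other tissues. Set per kilobase of the longest annotated transcript, Cox6a1 averaged 206 CPM per kb over the 4 samples and its heart and muscle form Cox6a2 1.49 CPM per kb. Cox6b1 averaged 169.9 CPM per kb and the testis form Cox6b2 1.11 CPM per kb. Cox7a2 averaged 73.6 CPM per kb, the muscle form Cox7a1 2.54 CPM per kb, and Cox7a2l, whose protein takes part in supercomplexes, 182 CPM per kb. Cox4i1 had the highest level per kb of all members, 403 CPM per kb, and Cox8a reached 197 CPM per kb, and the alternative forms Cox4i2 and Cox8b were not among the listed genes. Ndufa4 averaged 45.7 CPM per kb and its relative Ndufa4l2 0.338 CPM per kb. In each of these pairs the ranges over the 4 samples did not overlap, so the ubiquitous form was the higher in every sample.

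Between the genotypes, Cox6a1 was at 89.1 and 119 CPM in the controls and at 213 and 90.3 CPM in Dnmt1KO (log2 fold change 0.55, SE 0.44). Cox6b1 was at 82.2 and 98.0 CPM against 158 and 81.5 CPM (0.41, SE 0.36). Cox7a2 was at 39.8 and 46.6 CPM against 70.8 and 37.0 CPM (0.32, SE 0.35), and Cox8a was at 84.5 and 96.8 CPM against 160.01 and 91.2 CPM (0.47, SE 0.32). The groups overlapped in all 4, since Dnmt1KO replicate 2 was never above both controls.

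Cox7a2l varied least among these genes, at 211 and 188 CPM in the controls and at 216 and 208 CPM in Dnmt1KO (log2 fold change 0.09, SE 0.22, and -0.026 with a correction for transcript length). Ndufa4 was at 53.9 and 52.4 CPM against 67.9 and 51.2 CPM (0.16, SE 0.23). The rare forms rested on few reads. Cox7a1 had the highest log2 fold change of all tested members, 0.81 (SE 0.60), on 16 and 25 counts in the controls and 43 and 23 in Dnmt1KO, with the second Dnmt1KO sample between the controls on the CPM scale. Cox6a2 had 19 and 15 counts against 30 and 24 (0.73, SE 0.56), without overlap, and Cox6b2 had a log2 fold change of 0.01 (SE 0.62) that fell below 0 with the correction for length. Ndufa4l2 did not pass the filter, with 3 and 3 counts in the controls and 18 and 4 in Dnmt1KO.

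**Figure D3:**
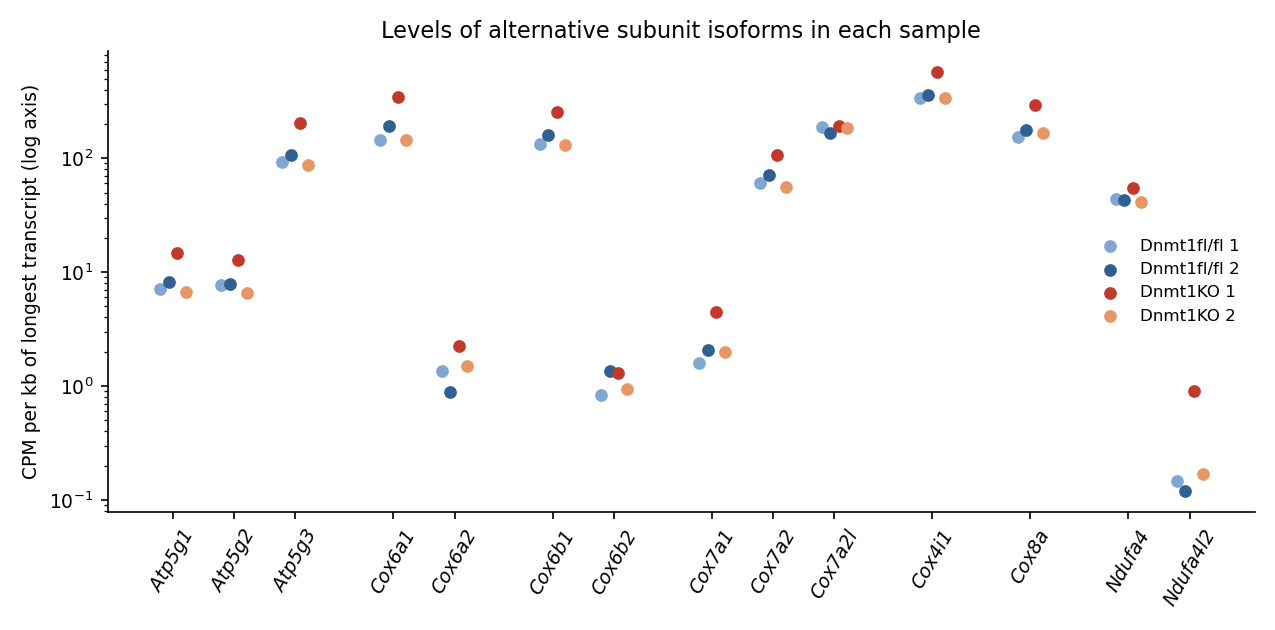
CPM per kb of the longest annotated transcript (y axis, log scale) in each of the 4 samples for subunits that have alternative isoforms (x axis), with 1 point per sample. The forms Cox6a2, Cox6b2, Cox7a1 and Ndufa4l2 lie below 5 CPM per kb in every sample, and the ubiquitous forms of the same subunits lie above 40.

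Complex V, the ATP synthase, had 17 of 17 members above 0 and a median of 0.32. It had no member without overlap, where both Dnmt1KO samples were above both controls for 8.14% of all genes and below for 8.56%. Its catalytic head held the most abundant messages of the whole set by CPM. Atp5a1, the alpha subunit, was at 496.4 and 530.05 CPM in Dnmt1fl/fl and at 754 and 496.1 CPM in Dnmt1KO (log2 fold change 0.28, SE 0.29). Atp5b, the catalytic beta subunit, was at 502 and 548 CPM against 746 and 445 CPM (0.18, SE 0.32). Atp5c1, the gamma subunit of the central stalk, was at 157 and 166 CPM against 207 and 163 CPM (0.20, SE 0.23). Complex V was also the complex in which Dnmt1KO replicate 2 was most often the lowest of the 4 samples, being below both controls for 15 of 17 members, Atp5c1 not among them.

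The c subunit, which forms the rotating ring, is encoded by 3 genes whose mature proteins are the same. Atp5g3 was the highest per length, with a mean of 123 CPM per kb against 9.15 CPM per kb for Atp5g1 and 8.70 CPM per kb for Atp5g2. The ranges of Atp5g1 and Atp5g2 over the samples overlapped. These levels rest on annotated lengths of 4715 nt for Atp5g1, 753 nt for Atp5g2 and 862 nt for Atp5g3. By CPM, with no division by length, Atp5g1 was above Atp5g2 in every sample. Atp5g1 was at 33.8 and 38.4 CPM in the controls and at 69.0 and 31.3 CPM in Dnmt1KO (log2 fold change 0.47, SE 0.39). Atp5g2 was at 5.84 and 5.90 CPM against 9.54 and 4.91 CPM (0.30, SE 0.40), and Atp5g3 was at 80.6 and 92.7 CPM against 177 and 75.1 CPM (0.54, SE 0.42). All 3 were highest in Dnmt1KO replicate 1 and lowest in Dnmt1KO replicate 2. Of the Atp5g2 stretches of 100 bases, 86.4% also occur in Gm10175, so its level is uncertain. In all, 31 members share at least 1 such stretch with another annotated gene, and 10 share 20% or more.

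The complexes were compared through their summed CPM, which follows the abundant subunits. Summed over all 81 members, the level was 5537 and 6165 CPM in Dnmt1fl/fl and 9074 and 5429 CPM in Dnmt1KO. Dnmt1KO replicate 1 stood at 1.55 times the control mean and replicate 2 at 0.928 times. By complex, the ratio of replicate 1 to the control mean was 1.60 in complex I, 1.35 in complex II, 1.56 in complex III, 1.61 in complex IV and 1.53 in complex V. The corresponding ratios for replicate 2 ran from 0.905 in complex V to 0.951 in complex IV. Single members ranged on the log2 scale from -0.0028 to 0.57 in complex I, from 0.16 to 0.26 in complex II, from 0.15 to 0.50 in complex III, from 0.01 to 0.81 in complex IV and from 0.12 to 0.54 in complex V. These ranges overlap throughout. The order of the complexes was not tested, since subunits of a complex are not replicates.

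The mitochondrially encoded subunits did not share this pattern. Their 13 genes summed to 11389 and 12035 CPM in the controls and to 11731 and 12471 CPM in Dnmt1KO, with Dnmt1KO replicate 1 between the controls. Dnmt1KO replicate 1 was highest for 4 of the 13 and lowest for 4, and the median log2 fold change was 0.05, with 9 above 0 and 4 below. The largest of them, mt-Co1, the catalytic subunit of complex IV, was at 6933 and 7459 CPM against 7272 and 7640 CPM, with overlapping groups. Most of each sum was thus mt-Co1. Stretches shared with other genes were not searched for in the mitochondrial set. The annotated messages of the mitochondrial set have a median of 784 nt, and the difference between the nuclear and the mitochondrial set was not tested.

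**Figure D4:**
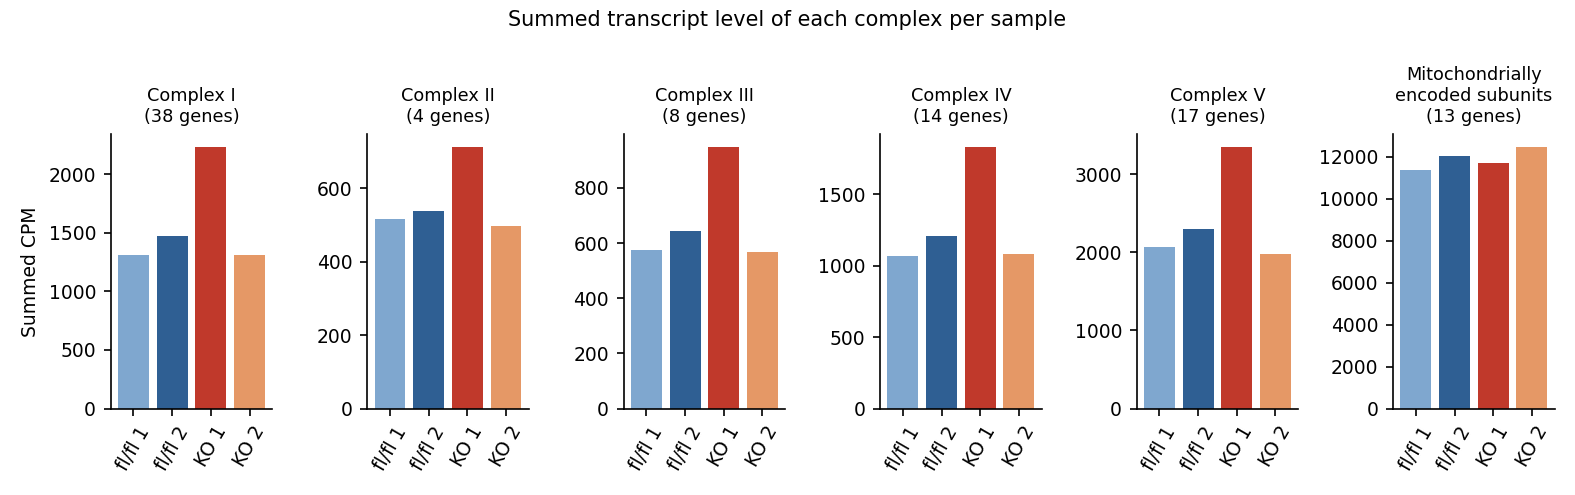
Summed CPM (y axis, starting at 0 and scaled separately in each panel) of each complex and of the 13 mitochondrially encoded subunits in the 4 samples (x axis), with 1 bar per sample and no error bar. The Dnmt1KO replicate 1 bar is the tallest for the 5 nuclear-encoded sets, at 1.35 to 1.61 times the control mean. It stands at 1.00 times the control mean for the mitochondrial set, where mt-Co1 makes up most of each bar.

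Subunit messages are short, with a median principal transcript of 823.5 nt against 2953 nt over all tested genes, so they were set against the length trend of the samples. By principal transcript length, 73 of the 80 members fell in the 3 shortest of the 10 length bins. In the shortest bin, the median deviation of Dnmt1KO replicate 1 was 0.59 for the 56 members and 0.36 for the other genes. In Dnmt1KO replicate 2 it was -0.30 for the members and -0.16 for the others, and in Dnmt1fl/fl replicate 1 it was -0.26 and -0.17. In these 3 libraries the members lay on the same side as other short genes and further out, while in Dnmt1fl/fl replicate 2 the members stood at -0.04 and the other genes at 0.01. Over all tested members, the deviation in Dnmt1KO replicate 1 had a median of 0.57, where a loess trend on length gave 0.20 at their lengths, and 77 of 80 lay above the trend.

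**Figure D5:**
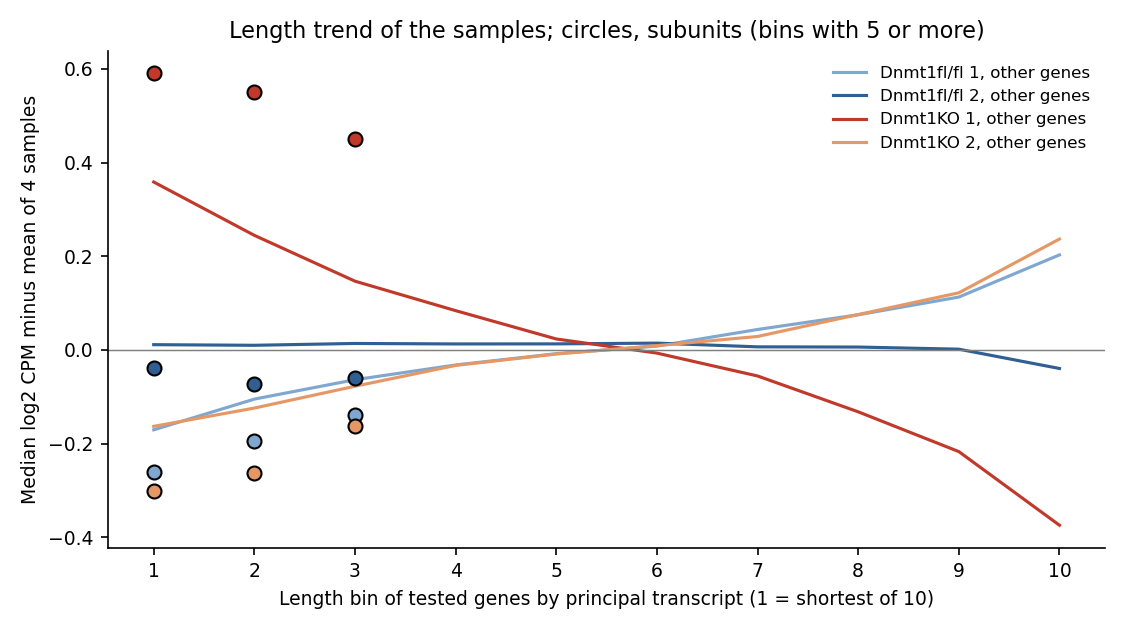
Median log2 CPM minus the mean of the 4 samples (y axis) in 10 equal bins of the tested genes ordered by principal transcript length (x axis). Lines are genes that are no members and circles are the subunits, shown where a bin holds at least 5, and the Dnmt1KO replicate 1 circles stand at 0.59, 0.55 and 0.45 above a line at 0.36, 0.24 and 0.15.

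With that trend removed through the offsets of the edgeR fit, a correction chosen after the data were seen in its use of the principal transcript, the median log2 fold change of the members fell from 0.34 to 0.23, against 0.05 over all genes. The number above 0 was 76 of 80 (59.3% of all genes). Medians by complex drew closer together, at 0.22 in complex I, 0.18 in complex II, 0.23 in complex III, 0.26 in complex IV and 0.25 in complex V. Complex II has the longest messages, with a median principal transcript of 2065.5 nt, and moved least. After the correction Dnmt1KO replicate 1 was the highest sample for 72 members (45.2% of all genes), and both Dnmt1KO samples were above both controls for 15 (11.2% of all genes). Ndufa6 and Ndufb11 were no longer among these, with corrected differences between Dnmt1KO replicate 1 and the control mean of 0.08 and -0.02 on the log2 scale. No member passed an adjusted p of 0.05 in edgeR with the correction (0.0% of all genes), and none had an unadjusted p under 0.05 (0.383% of all genes did). Without Dnmt1KO replicate 1 the corrected median was -0.07, with 23 of 80 above 0 (48.3% of all genes) and none called (0.031% of all genes). Without Dnmt1KO replicate 2 it was 0.48, with 77 of 81 above 0 (56.7% of all genes) and 16 called (5.57% of all genes).

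Other genes of the pathway were counted from lists. No gene of any list passed an adjusted p of 0.05 by edgeR's quasi-likelihood test. Mitochondrial ribosomal proteins, which translate the mitochondrially encoded subunits, had a median log2 fold change of 0.22, with 72 of 78 above 0 and 74 highest in Dnmt1KO replicate 1. Cytosolic ribosomal proteins, a set with no part in respiration but with short and abundant messages, had a median of 0.22, with 85 of 87 above 0 and 83 highest in Dnmt1KO replicate 1. Enzymes of the tricarboxylic acid cycle had a median of 0.12, with 11 of 13 above 0. The pattern of a single high library was thus also present outside the respiratory chain.

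Assembly factors, which build the complexes without staying in them, had a median of 0.06, with 31 of 50 tested genes above 0 and 33 highest in Dnmt1KO replicate 1. Subunits and carriers whose names the rule does not catch, such as cytochrome c1 (Cyc1), the electron transfer flavoproteins and the adenine nucleotide carriers, had a median of 0.15, with 12 of 15 above 0. Cyc1, a subunit of complex III, was at 55.1 and 61.2 CPM in the controls and at 83.4 and 52.1 CPM in Dnmt1KO. Genes of ubiquinone synthesis (6 of 13 above 0, median -0.04) and regulators of mitochondrial biogenesis (5 of 13 above 0, median -0.03) were spread around 0. These lists hold longer messages than the members, whose median principal transcript was 823.5 nt. List medians were 1656 nt in assembly factors, 1954 nt in other subunits and carriers, 1789 nt in ubiquinone synthesis and 3656 nt in regulators. With the length correction on the principal transcript, the median log2 fold changes were 0.06, 0.12, -0.10 and -0.04, in that order.

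Promoters were examined for features the name rule did not use, in windows of 300 bases from RefSeq (GRCm38.p6) that run from 250 bases before to 50 bases after the transcript start. Of 81 members, 66 had a window. The ratio of observed to expected CpG dinucleotides, the substrate of Dnmt1, had a median of 0.801 in the members, against 0.380 over all 27025 promoters and 0.762 over the promoters of the other tested genes. A ratio above 0.6 was found in 83.3% of the members, in 35.9% of all promoters and in 70.4% of those of other tested genes. The methylation of these windows was not measured here.

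Motifs of 5 factors known for respiratory genes or for CpG-rich promoters were searched on both strands. CGCATGCG, the core of the NRF1 site, occurred in 9 of 66 member promoters (13.6%), in 1.88% of all promoters and in 3.88% of those of the other tested genes. AAGATGGCG, a YY1 sequence, occurred in 7 (10.6%), against 1.49% and 3.25%. CCGGAAGT, bound by ETS factors such as GABPA, occurred in 5 (7.58%), against 3.93% and 8.57%. AAGGTCA, an element of estrogen-related receptors, occurred in 8 (12.1%), against 4.66% and 3.18%, and the GC box GGGCGG in 26 (39.4%), against 35.6% and 63.3%. The motifs do not contain one another. None of the 5 was found in 22 of the 66 windows (33.3%), against 58.0% and 29.9%.

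Promoters of 4 members described above are shown, 1 for each of the NRF1, ETS and YY1 motifs and that of Uqcrfs1, whose groups did not overlap and whose window holds none of the 5 motifs. Capitals mark the motif matches on either strand, and each sequence reads in the direction of its gene. Uqcrc1 lies at chr9:108936398-108936697 on the plus strand, Ndufs3 at chr2:90904672-90904971 on the minus strand, Ndufs7 at chr10:80249199-80249498 on the plus strand and Uqcrfs1 at chr13:30545267-30545566 on the minus strand.
Uqcrc1: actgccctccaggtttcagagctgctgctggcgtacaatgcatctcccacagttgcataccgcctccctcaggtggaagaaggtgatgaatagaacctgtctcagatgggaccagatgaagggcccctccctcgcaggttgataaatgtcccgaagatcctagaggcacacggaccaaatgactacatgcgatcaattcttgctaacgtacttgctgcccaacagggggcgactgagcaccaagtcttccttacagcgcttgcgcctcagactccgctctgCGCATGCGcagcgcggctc
Ndufs3: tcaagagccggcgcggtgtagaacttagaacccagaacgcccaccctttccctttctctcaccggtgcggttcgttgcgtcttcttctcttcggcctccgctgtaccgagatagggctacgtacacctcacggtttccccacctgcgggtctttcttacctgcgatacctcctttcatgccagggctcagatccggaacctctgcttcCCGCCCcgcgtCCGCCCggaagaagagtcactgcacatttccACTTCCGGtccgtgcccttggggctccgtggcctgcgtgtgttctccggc
Ndufs7: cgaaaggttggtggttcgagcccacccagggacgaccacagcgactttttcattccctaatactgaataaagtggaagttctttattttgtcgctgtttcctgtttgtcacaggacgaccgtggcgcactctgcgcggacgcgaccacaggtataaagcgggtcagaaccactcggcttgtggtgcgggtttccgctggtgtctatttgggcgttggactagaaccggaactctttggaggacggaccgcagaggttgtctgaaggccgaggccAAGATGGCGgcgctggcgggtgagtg
Uqcrfs1: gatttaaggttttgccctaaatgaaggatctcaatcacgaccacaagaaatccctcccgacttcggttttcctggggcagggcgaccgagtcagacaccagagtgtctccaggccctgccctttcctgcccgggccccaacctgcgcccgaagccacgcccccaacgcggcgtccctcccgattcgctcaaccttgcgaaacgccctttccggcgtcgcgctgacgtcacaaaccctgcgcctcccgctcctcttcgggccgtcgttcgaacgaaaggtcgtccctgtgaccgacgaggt

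In Uqcrc1 the NRF1 core begins 31 bases after the start of transcription, and in Ndufs7 the YY1 sequence begins 24 bases after it. In Ndufs3 the ETS sequence lies at the start itself, behind a pair of GC boxes that begin 42 and 31 bases upstream. All 4 genes were highest in Dnmt1KO replicate 1, and their log2 fold changes lay between 0.27 (SE 0.25) for Ndufs3 and 0.38 (SE 0.32) for Ndufs7. A motif match describes the letters of a window and says nothing of binding in these cells.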

How the data were processed

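Libraries from total RNA of 4 peritoneal macrophage samples (NEBNext Ultra kit) were sequenced as paired-end reads. Per the submitters' processing notes, reads were aligned to mm10 with HISAT2 2.0.5 and counted per gene with featureCounts 1.5.0-p3, and DESeq2 1.20.0 was used for the comparison. The table the authors deposited holds estimated counts without normalization, which are not all whole numbers, and these were rounded. A shorter deposited table, which repeats genes of the whole one, was not used. No column of another sample was present.

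Counts were tested with edgeR 4.0.16 (limma 3.58.1, R 4.3.3): filterByExpr, TMM, and a quasi-likelihood F-test of genotype, two-sided, with Benjamini-Hochberg adjustment over 12542 genes and a threshold of 0.05. The fit was tested on simulated data. Library totals of 20228082 to 24198959 counts put 3 counts at 0.12 to 0.15 CPM, which covers counting error only. Log2 CPM used a prior count of 1. Transcript lengths and positions came from GENCODE on mm10 and covered all 81 members, and the length trend was a loess fit with a span of 0.5 for each sample. The longest transcript was used for levels per kb, as the plan set, and the principal (APPRIS) transcript was added after the data were seen, because the longest one is often a retained intron. Alternatives used DESeq2 1.42.0, limma-voom, other filters and scalings, a replicate block and leaving out each sample.

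Named with values were catalytic and electron-carrying subunits, isoform sets, in each complex the 2 highest and 2 lowest log2 fold changes among members whose groups did not overlap, members with a p under 0.05, members that failed the filter, and Dnmt1. A gene of this rule is not reported here. The members, lists and rule were chosen with earlier results of these data known. Same-numbered samples of the 2 genotypes are not said to share an animal or a day.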

Additional observations from a re-analysis of the deposited data

How the results depend on the processing

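With all 4 samples kept, the median log2 fold change of the members stayed above 0, between 0.20 and 0.36, over 11 alternatives, and no alternative called a member. The medians of complexes I to V kept their direction too, complex II between 0.12 and 0.22. Among all genes, DESeq2 called 1 and edgeR none. The replicate block gave a median of 0.29 over the members and called no gene, with the length correction 0.20. Deviations of same-numbered samples correlated at -0.348, and nothing in the labels ties them, so the numbers were not taken as pairs. The crossed pairing, added after seeing the data, called 3 genes of all, 1 with the correction on the principal transcript, and none of the members. Of the 36 named members, Ndufs1 turned to -0.0093 and Cox6b2 to -0.071 with library totals only. The correction on the longest transcript turned Cox6b2 to -0.050 and Cox7a2l to -0.026 (-0.038 and -0.026 with the replicate block), and on the mean length Cox6b2 to -0.070. Ndufb2 turned to 0.0051 in DESeq2, 0.0062 without the filter, 0.10 with the length correction and 0.062 with that and the replicate block. The length used for Ndufb2 in the correction on the longest transcript was 4371 nt, against a median of 1003 nt over the members. The cause of these turns was not tested.

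With 1 sample left out, the members' median turned below 0 without Dnmt1KO replicate 1 and stayed above 0 without any of the others. Calls ran from 0 to 1062 over all genes and from 0 to 32 over the members, and medians ran from -0.14 to 0.72 over the members, from -0.12 to 0.73 in complex I, from -0.12 to 0.48 in complex II, from -0.10 to 0.63 in complex III, from -0.10 to 0.77 in complex IV and from -0.21 to 0.71 in complex V. The low end of these medians, and of the values that follow, came without Dnmt1KO replicate 1 and the high end without Dnmt1KO replicate 2, except for Cox6b2, whose ends came without Dnmt1fl/fl replicate 1 and 2. In complex I the named members ran from -0.042 to 0.17 (Ndufs1), -0.013 to 0.51 (Ndufs3), -0.060 to 0.72 (Ndufs7), -0.11 to 0.55 (Ndufs8), -0.0049 to 0.61 (Ndufv1), -0.056 to 0.35 (Ndufa4) and -0.28 to 0.23 (Ndufb2). In complexes II and III they ran from -0.052 to 0.34 (Sdha), -0.18 to 0.45 (Sdhb), -0.18 to 0.59 (Sdhc), -0.039 to 0.51 (Sdhd), -0.10 to 0.62 (Uqcrc1) and -0.077 to 0.34 (Uqcrc2). In complex IV they ran from -0.035 to 0.72 (Cox4i1), -0.24 to 0.94 (Cox5a), -0.19 to 0.90 (Cox5b), -0.20 to 1.04 (Cox6a1), -0.15 to 0.81 (Cox6b1), -0.29 to 0.42 (Cox6b2) and -0.23 to 0.71 (Cox7a2). In complex V they ran from -0.051 to 0.55 (Atp5a1), -0.24 to 0.51 (Atp5b), -0.21 to 0.93 (Atp5g1), -0.26 to 0.70 (Atp5g2) and -0.21 to 1.03 (Atp5g3). The other named members stayed above 0, but without Dnmt1KO replicate 1 they came to 0.0068 (Ndufv2), 0.13 (Ndufv3), 0.23 (Ndufb4), 0.18 (Ndufa6), 0.071 (Ndufb11), 0.041 (Uqcrfs1), 0.42 (Cox6a2), 0.13 (Cox7a1), 0.061 (Cox7a2l), 0.0059 (Cox8a) and 0.013 (Atp5c1). Few reads limit Cox6a2, Cox6b2, Cox7a1 and Ndufa4l2.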

Other observations

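Single mitochondrially encoded subunits differed between samples without a common order. The complex I subunit mt-Nd3 was at 28.9 and 24.4 CPM in Dnmt1fl/fl and at 43.9 and 31.01 CPM in Dnmt1KO, and mt-Nd6 was at 117 and 132 CPM against 154 and 136 CPM, so both Dnmt1KO samples lay above both controls for these genes. For mt-Nd5 the Dnmt1KO samples were the lowest and the highest of the 4, at 473 and 836 CPM against 746 and 630.4 CPM in the controls. The complex IV subunit mt-Co3 was highest in a control, at 230.05 CPM in Dnmt1fl/fl replicate 2 against 116 to 159 CPM in the other samples. Their log2 fold changes ran from -0.34 (SE 0.38) for mt-Co3 to 0.49 (SE 0.26) for mt-Nd3 among these 4 genes, with adjusted p = 1.00 by edgeR's quasi-likelihood test in each. They were chosen after their values were seen.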
